A study of Caenorhabditis elegans with 2 samples.

Results

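Where an eGFP-tagged copy of the nuclear hormone receptor NHR-21 was bound was examined over 10 genes of the Caenorhabditis elegans insulin/IGF-1 signalling pathway: daf-2, age-1, pdk-1, akt-1, akt-2, sgk-1, daf-18, daf-16, skn-1 and hsf-1. The genes were chosen by name for their place in the pathway, with earlier results of these data known. They are 10 of the 19973 protein-coding genes on the 6 chromosomes. For each gene, every interval with its summit in the annotated gene body or within 5 kb upstream of its most upstream 5′ end was taken from the deposited peak lists. Chromatin immunoprecipitation with sequencing (ChIP-seq) had been done on whole L2 larvae of mixed sex from strain OP361. This strain carries the integrated transgene wgIs361, with tagged nhr-21, in the mutant background unc-119(tm4063) III, and both replicates share that genotype. There were 2 biological replicates, labelled as 1 group, with DNA fragments of 150 to 350 bp. The antibody is labelled nhr-21, whereas the sample description names the eGFP fusion. No input or other control library was analysed here, the age is given only as the larval stage, and signal from whole animals cannot be assigned to a tissue.

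In worms, insulin-like peptides act on the receptor DAF-2, which signals through the phosphoinositide 3-kinase AGE-1 to the kinases PDK-1, AKT-1, AKT-2 and SGK-1. These kinases keep the forkhead transcription factor DAF-16 and the Nrf-type factor SKN-1 out of the nucleus, and the phosphatase DAF-18 opposes AGE-1. The pathway is known for its control of dauer formation, stress resistance and lifespan, in which the heat shock factor HSF-1 also takes part. Nuclear hormone receptors such as NHR-21 are DNA-binding proteins, many of which are regulated by small lipophilic ligands.

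The sequences at the member summits show the DNA on which these binding calls rest. The following stretches, each a summit with 50 bases on either side (ce11, which is WBcel235, read from the RefSeq genome, 5′ to 3′ on the sense strand of the gene) are from optimal peaks of 5 of the genes. They were chosen to include the promoter-proximal summits of daf-2 and akt-2, the intronic pdk-1 and skn-1 summits, and the distal akt-1 summit. Capitals mark any of 9 searched words on either strand: GTAAACA (bound by DAF-16), CTTATCA (the DAF-16-associated element), NNTNTCAT with A or T at both opening N positions and A or G at the later one (bound by SKN-1), GAANNTTC and, in the other order, TTCNNGAA (bound by heat shock factor), GAGAGA (a purine repeat), CACGTG (the E-box, bound by many basic helix-loop-helix factors), AGGTCA (the classical nuclear receptor word) and its variant AAGTCA.
daf-2, III:3041186-3041286, minus strand: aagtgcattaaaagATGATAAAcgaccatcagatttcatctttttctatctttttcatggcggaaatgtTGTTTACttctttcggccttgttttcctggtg
pdk-1, intronic, X:1323151-1323251, plus strand: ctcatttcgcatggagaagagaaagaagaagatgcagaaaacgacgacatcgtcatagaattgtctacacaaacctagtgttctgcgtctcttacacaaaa
akt-1, V:10246579-10246679, plus strand: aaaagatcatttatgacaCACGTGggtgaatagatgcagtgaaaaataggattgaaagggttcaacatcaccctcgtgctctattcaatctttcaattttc
akt-2, X:14146887-14146987, plus strand: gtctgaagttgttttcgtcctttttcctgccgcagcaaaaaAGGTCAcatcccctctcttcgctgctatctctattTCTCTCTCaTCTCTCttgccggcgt
skn-1, strongest, IV:5657218-5657318, minus strand: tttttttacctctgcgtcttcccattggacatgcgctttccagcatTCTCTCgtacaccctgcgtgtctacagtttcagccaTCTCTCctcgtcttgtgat
skn-1, second, IV:5656066-5656166, minus strand: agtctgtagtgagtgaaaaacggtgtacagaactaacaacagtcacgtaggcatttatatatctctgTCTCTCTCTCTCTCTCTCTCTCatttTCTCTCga
skn-1, weakest, IV:5657420-5657520, minus strand: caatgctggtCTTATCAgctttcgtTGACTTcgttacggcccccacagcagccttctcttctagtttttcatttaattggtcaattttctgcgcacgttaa
The pdk-1 stretch held none of the words. In the second skn-1 stretch the capitals fall on a long run of TC repeats and on a shorter copy just after it.

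The deposited lists give each interval a signal, the authors' peak score for binding, and a summit. The pooled list and each replicate list hold 30000 candidates, which include background. The 3647 optimal peaks are the candidates of the pooled list with the highest signal, from 52.2 to 1244 with a median of 87.3. The rank of an interval is counted from the highest signal of its own list. Total read counts were not in the files, so the depth behind each value is unknown.

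An optimal summit lay in the window of 6 of the 10 genes: daf-2, pdk-1, akt-1, akt-2, daf-16 and skn-1. The share over all protein-coding genes was 23.6%, and it was 32.2% over the 4489 genes whose window was at least as long as the shortest window of the 10. A promoter window, from 1000 bp upstream to 250 bp downstream of any annotated 5′ end, held an optimal summit in 4 of the 10 genes (daf-2, akt-2, daf-16 and skn-1), against 11.6% of all protein-coding genes. A gene with several annotated ends has several such windows, and daf-2 has 6 ends, daf-16 has 7 and skn-1 has 4. The 11.6% was not matched for the number of ends. A pooled candidate of any strength was in the window of 9 of the 10 genes, all but age-1, against 66.7% of all protein-coding genes. Over the 3647 strongest intervals of replicate 1 alone the promoter count was 2 (akt-2 and skn-1) and over those of replicate 2 alone it was 4, while a promoter window of 500 bp left 2 (daf-2 and daf-16). The 11.6% was not recomputed for these alternatives, so their counts have no matching share. Genes are not replicates, and no test was made of these counts.

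**Figure D1:**
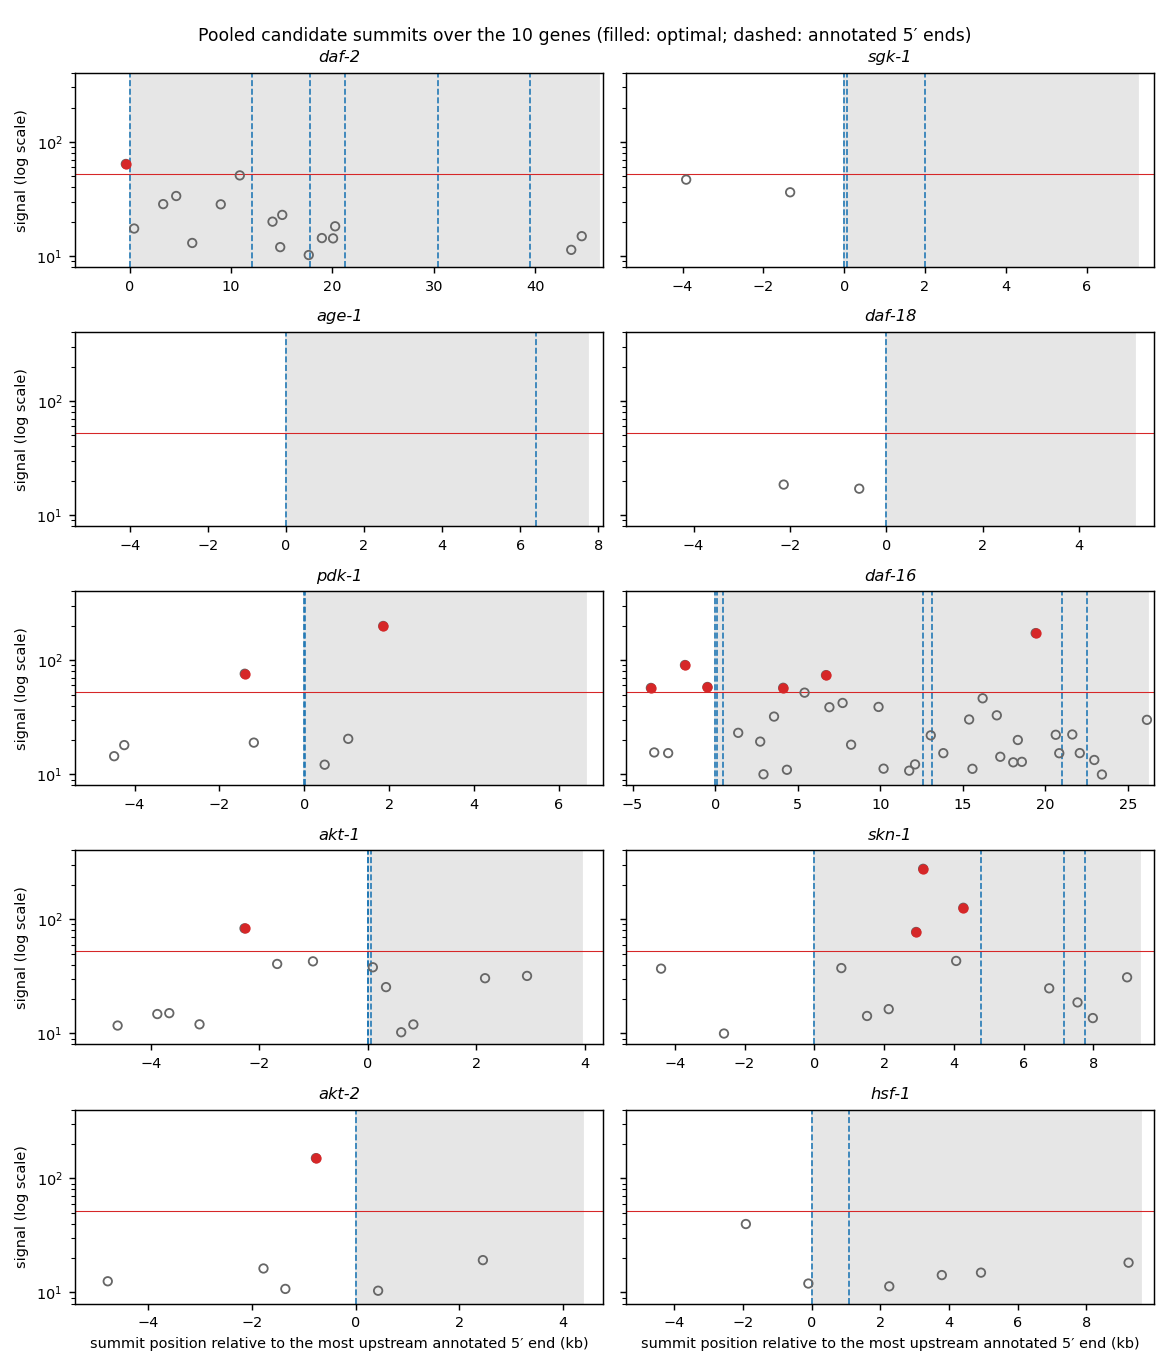
Each panel shows 1 gene from 5 kb upstream to its 3′ end, with the position of each pooled candidate summit (kb from the most upstream 5′ end) on the x axis and its signal on a log y axis. Filled points are optimal peaks, open points other candidates, the grey area is the gene body, dashed lines are annotated 5′ ends and the red line is the lowest optimal signal, 52.2. daf-16 holds 6 optimal summits on both sides of its upstream ends, the 3 of skn-1 lie in the gene body, and age-1 has no point.

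daf-2 encodes the insulin/IGF-1 receptor and is the longest of the 10 genes, with 46.3 kb at III:2994514-3040846 on the minus strand and 6 annotated 5′ ends. It had 1 optimal peak, at III:3041041-3041430, with its summit 390 bp upstream of the most upstream end, that of isoform c. The pooled signal there was 64.2 (rank 2782), replicate 1 gave 22.5 (rank 3936) and replicate 2 gave 39.7 (rank 2723). Replicate 1 thus ranked it outside a list as long as the optimal one, and replicate 2 inside it. The stretch around this summit holds GTAAACA and the SKN-1 word. The 5 downstream ends had no optimal summit in their promoter windows, and the strongest pooled candidate there was 18.3. Of the 15 other pooled candidates of daf-2, 14 were intronic, and the strongest (III:3029797-3030186, signal 51.0, rank 3740) was 1192 bp upstream of the isoform a end, inside the gene. That candidate stood at rank 10610 in replicate 1 and rank 2968 in replicate 2. The strongest interval of replicate 1 over daf-2 was another intronic one, with 22.96 (rank 3801).

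age-1, which encodes the catalytic subunit of phosphoinositide 3-kinase, had the least signal. No pooled and no replicate 1 candidate fell in its window (gene at II:11519328-11527054, minus strand). Replicate 2 held 1 interval, 51 bp downstream of the upstream end, with a signal of 6.58 at rank 27294 of 30000.

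pdk-1 encodes the kinase that phosphorylates AKT-1, AKT-2 and SGK-1, and lies at X:1321344-1327986 on the plus strand. Its stronger optimal peak (X:1323006-1323395) had a pooled signal of 199 (rank 441), with 93.6 (rank 332) in replicate 1 and 106 (rank 537) in replicate 2. Its summit was in the second intron of both transcripts, an intron of 2.05 kb, 1848 bp downstream of the nearer of 2 ends that are 9 bp apart. The weaker peak (X:1319745-1320134) was 1404 bp upstream of the gene, with 76.0 (rank 2223) pooled, 36.9 (rank 1854) in replicate 1 and 34.5 (rank 3281) in replicate 2. Both peaks were thus among the strongest 3647 in each replicate, and neither lay in the promoter window. The 5 other pooled candidates of pdk-1 did not exceed 20.5.

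akt-1 and akt-2 encode the paired AKT kinases, and each had 1 optimal peak upstream of the gene. The akt-1 peak (V:10246434-10246823, gene at V:10248905-10252845 on the plus strand) was 2276 bp upstream of the nearest akt-1 end and 3424 bp upstream of C12D8.9, which is transcribed in the other direction. Its pooled signal was 83.2 (rank 1963), with 31.8 (rank 2323) in replicate 1 and 52.1 (rank 1860) in replicate 2. The promoter windows of the akt-1 ends held only a pooled candidate of 37.9 (rank 5453). The strongest replicate intervals with a summit in those windows were 20.2 (rank 4626) in replicate 1 and 7.50 (rank 23619) in replicate 2, and a stronger replicate 2 interval (17.3, rank 8084) had its summit in the gene body, 351 bp downstream of the most upstream end. The akt-2 peak (X:14146742-14147131, gene at X:14147700-14152070 on the plus strand) was closer, 763 bp upstream of the single annotated end, and stronger. Its pooled signal was 150 (rank 728), with 66.6 (rank 665) and 82.5 (rank 876) in replicates 1 and 2. The akt-2 stretch holds AGGTCA and GAGAGA, and that of akt-1 CACGTG. The other akt-2 candidates stayed at or below 19.2, whereas akt-1 had 12 others, up to 42.8.

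sgk-1, for the kinase that acts beside the AKT kinases, and daf-18, for the phosphatase, had pooled candidates upstream only and no optimal peak. Weak intervals inside the genes appeared in single replicates, 2 over sgk-1 in replicate 1 (the stronger at rank 19616) and 1 over daf-18 in replicate 2 (rank 23029). Both sgk-1 candidates lay near or in the adjacent gene mua-6. The stronger (X:16265839-16266228) had a pooled signal of 46.8 (rank 4168), with 19.9 (rank 4703) and 25.5 (rank 4876) in replicates 1 and 2. It was 3912 bp upstream of sgk-1 (X:16254842-16262122, minus strand) but only 348 bp from a 5′ end of mua-6. The weaker, with 36.3 (rank 5780), lay 1338 bp upstream of sgk-1 inside the body of mua-6, and the strongest interval of replicate 2 (26.2, rank 4690) was at nearly the same place. For daf-18 (IV:420011-425177, minus strand), the pooled candidates had 18.6 (rank 13856) at 2128 bp upstream and 17.1 (rank 15423) at 560 bp upstream. The nearest 5′ end to both was that of garr-1. The strongest daf-18 interval of replicate 1 (11.6, rank 11153) lay between the pooled summits, and that of replicate 2 (18.6, rank 7347) overlapped the weaker pooled candidate.

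daf-16 encodes the forkhead factor on which the pathway converges, and it carried more optimal summits than any other of the 10 genes, 6 of 14. Of all protein-coding genes, 28 (0.140%) had at least 6 in the same kind of window. The daf-16 window was 31.2 kb long against a median of 7.03 kb over all protein-coding genes. A long window can hold more summits, and the share was not restricted to windows of similar length. The gene lies at I:10750498-10776703 on the plus strand, with 11 transcripts and 7 annotated ends. Its strongest peak (I:10769716-10770105) had 172 (rank 566) pooled, 50.7 (rank 1071) in replicate 1 and 125 (rank 403) in replicate 2. The summit was in a 7.68-kb intron of 9 transcripts, 1597 bp upstream of the isoform a end, with the noncoding gene R13H8.5 within 250 bp. 2 more optimal summits were in the 12.4-kb intron of the 5 transcripts that begin farthest upstream. The one at I:10757014-10757403 had 73.9 pooled (rank 2303), with ranks 3151 and 1831 in replicates 1 and 2. The one at I:10754420-10754809 had 57.3 (rank 3251), with ranks 3290 and 3991.

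The other 3 daf-16 summits were upstream of the whole gene. The nearest (I:10749832-10750221) lay 471 bp upstream of the most upstream end, in the promoter windows of the 3 upstream ends. It had 58.2 (rank 3179) pooled, 21.9 (rank 4095) in replicate 1 and 39.3 (rank 2761) in replicate 2, and 2 noncoding genes, H36N01.1 and H36N01.4, were within 250 bp. The next (I:10748471-10748860) was 1832 bp upstream, with 90.6 (rank 1730) pooled and ranks 1483 and 2013 in the replicates. The most distant (I:10746406-10746795) was 3897 bp upstream but 2186 bp from the end of B0205.4, with 57.1 (rank 3257) pooled and ranks 5758 and 2825. It was the weakest optimal summit of the 10 genes and the only one whose nearest 5′ end belonged to another gene. The strongest candidate below the optimal threshold, again in daf-16, had 51.9 (rank 3666). The 4 downstream daf-16 ends had no optimal summit in their promoter windows, where pooled candidates reached 12.2 to 22.3.

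skn-1 encodes the Nrf-type factor and lies at IV:5651039-5660384 on the minus strand, with 4 annotated 5′ ends. It had the strongest peak of the 10 genes, at IV:5657179-5657398, with 276 (rank 221) pooled, 114 (rank 214) in replicate 1 and 163 (rank 238) in replicate 2. All 3 of its optimal summits lay in the first intron of isoform a, 4.35 kb long, and upstream of the isoform c end. The strongest was 1663 bp upstream of that end, with the noncoding genes T19E7.26 and T19E7.27 within 250 bp. The second (IV:5655921-5656310) was 511 bp upstream of it, with 126 (rank 1004) pooled, 53.8 (rank 987) in replicate 1 and 72.3 (rank 1123) in replicate 2. The weakest (IV:5657327-5657480) overlaps the interval of the strongest and so is not a separate region. Its pooled signal was 77.3 (rank 2163), and the replicate intervals nearest to its summit ranked 5025 and 1510. The promoter window of the isoform a end held no pooled candidate, those of isoforms b and d reached 24.8 and 18.7, and that of isoform c held the 126 peak.

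hsf-1, for the heat shock factor, had 6 pooled candidates and no optimal peak. The strongest (I:11964803-11965192) was 1913 bp upstream of the gene (I:11953507-11963085, minus strand), with 39.8 (rank 5132) pooled and 13.9 (rank 8409) in replicate 1. No replicate 2 interval overlapped it. The strongest replicate 2 interval over hsf-1 was in the gene body, with 9.96 (rank 16734).

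All 14 optimal intervals overlapped an interval in each replicate list by at least 1 bp. Each replicate list holds 30000 candidates, background included, so this is a weak requirement. No matching share of all optimal peaks was computed, here or for the counts by rank that follow. The nearest replicate interval was among the 3647 strongest for 10 of 14 in replicate 1 and 13 of 14 in replicate 2, and for 9 in both. The 4 peaks below that rank in replicate 1 were the one of daf-2, those of daf-16 at 471 and 3897 bp upstream and the weakest of skn-1, and the 1 below it in replicate 2 was the intronic daf-16 peak of 57.3.

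**Figure D2:**
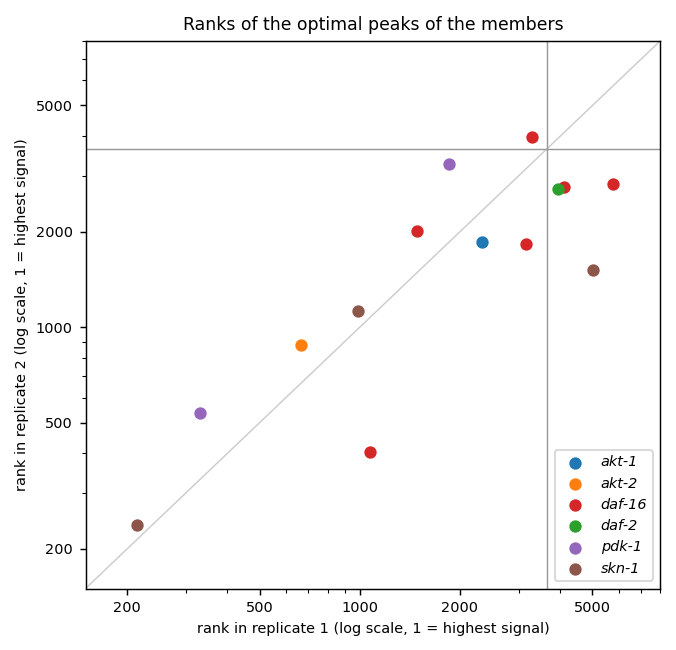
Each point is 1 of the 14 optimal peaks, coloured by gene, at its rank in replicate 1 (x, log scale) and replicate 2 (y, log scale), for the replicate interval with the nearest summit. The grey lines mark rank 3647 and the diagonal equal ranks: 9 points are inside both lines, and the strongest skn-1 peak, at ranks 214 and 238, is at the lower left.

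Of the 14 optimal summits, 7 were upstream of the gene and 7 were in introns; none was in an exon of the gene. Over all optimal peaks, 25.4% of summits were only in introns of protein-coding genes. That share also covers peaks outside the window of any protein-coding gene, so it is not a matched background for the 14. An annotated noncoding gene was within 250 bp of 5 of the 14 summits, against 23.9% of all optimal summits, a share with the same limit. Of the 14, 6 were in the stronger 50% of the optimal list: 2 of skn-1, 2 of daf-16, and 1 each of pdk-1 and akt-2.

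The genes differ in length, so the counts were also set against the length of the windows. The windows of the 10 genes cover 176.6 kb and held 7.93 optimal summits per 100 kb, against 3.68 over the windows of all protein-coding genes. For pooled candidates the values were 58.3 and 30.7 per 100 kb. Without daf-16 the other 9 genes held 5.50 optimal summits and 44.7 candidates per 100 kb. skn-1 had 20.9 optimal summits per 100 kb, daf-16 had 19.2 and pdk-1 had 17.2. With the overlapping skn-1 intervals counted as 1 region, skn-1 had 13.9 per 100 kb, below daf-16 and pdk-1, and the 10 genes had 7.36 against 3.58 over all protein-coding windows. daf-2, with its 51.3-kb window, had 1.95, below the value over all genes. akt-1 had the most pooled candidates for its length, 145 per 100 kb, with daf-16 next at 122.

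**Figure D3:**
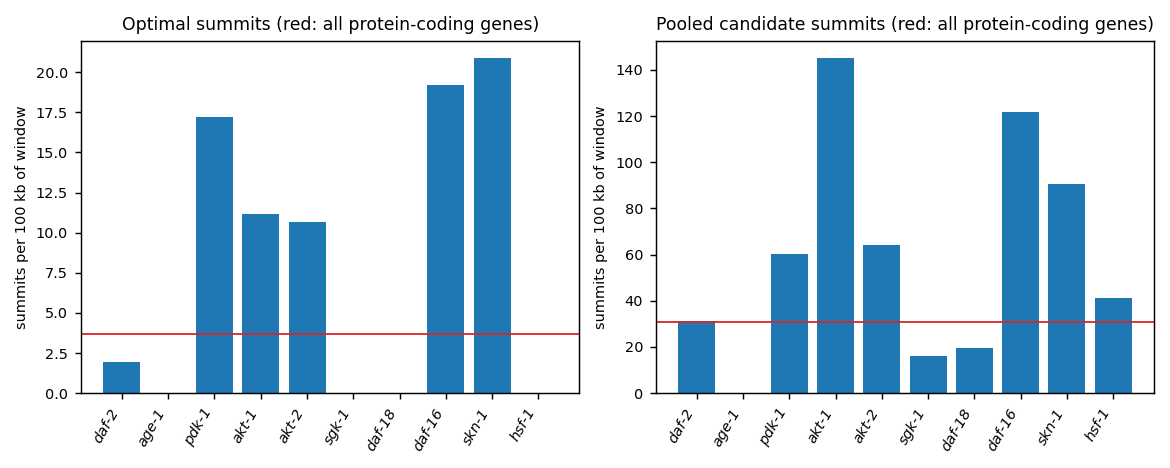
Bars give the number of summits per 100 kb of window for each gene, on the left for optimal peaks and on the right for pooled candidates, and the red lines give the value over the windows of all protein-coding genes (3.68 and 30.7). 5 genes are above the line for optimal peaks, daf-2 is below it, and age-1, sgk-1, daf-18 and hsf-1 are at 0.

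By its strongest candidate, skn-1 stood highest: 397 of all protein-coding genes (1.99%), itself included, had a signal at least as high in their window. The share was 3.78% for pdk-1, 4.88% for daf-16 and 6.17% for akt-2. It was 14.4% for akt-1 and 19.2% for daf-2. The genes without an optimal peak followed, with 25.8% for sgk-1, 29.7% for hsf-1 and 49.6% for daf-18. A long window can hold a high value more easily, and the windows of the 10 genes (median 12.5 kb) were longer than those of all protein-coding genes (median 7.03 kb).

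**Figure D4:**
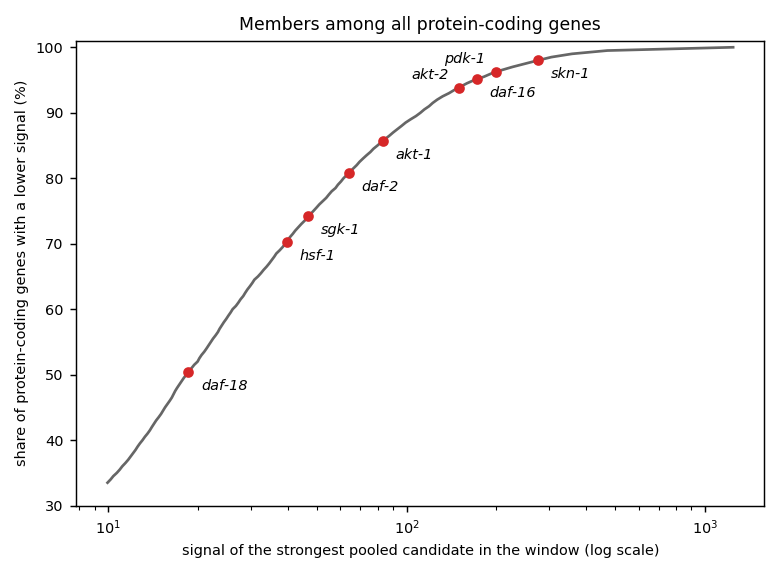
The line gives, for each signal (x, log scale), the share of protein-coding genes whose strongest pooled candidate in the window is weaker (y, percent), and points mark 9 of the 10 genes, age-1 having none. skn-1, pdk-1, daf-16 and akt-2 lie at the top of the line and daf-18 near its middle.

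The stretch from 50 bases before to 50 after each summit was searched for the 9 words, and a match describes letters only. GTAAACA was found at 2 of the 14 summits (daf-2 and the daf-16 summit 471 bp upstream), 14.3% against 1.89% of all optimal summits and 1.46% of all pooled candidates. CACGTG was found at 3 (akt-1 and 2 of daf-16), 21.4% against 7.21% and 3.02%. GAGAGA was found at 5 (akt-2, 2 of daf-16 and 2 of skn-1), 35.7% against 24.3% and 11.03%. These are small counts: 1 summit more or less of 14 moves the share by 7.14 percentage points. Of the nuclear receptor words, AGGTCA was found at 1 summit (akt-2), with 3.76% of all optimal summits, and AAGTCA at 2 (daf-16 and the weakest skn-1 summit), with 3.92%. CTTATCA was also at the weakest skn-1 summit, with 4.11% of all, and the SKN-1 word was at the daf-2 summit, with 4.61% of all. With 100 bases on either side of the summit in place of 50, GAGAGA stayed at 35.7% of the 14, below the 38.2% of all optimal summits, and CTTATCA and AGGTCA, at 7.14%, were also below all optimal summits (8.97% and 7.87%). In the wider stretch GTAAACA was at 3.56% and CACGTG at 10.8% of all optimal summits, with the members' counts as before. Neither heat shock word was in any of the 14 windows. With 50 bases on either side, GAANNTTC was at 3.65% and TTCNNGAA at 4.17% of all optimal summits. At such shares, none of 14 is no sign of a lack. The GC content of the 14 windows was 46.1% ± 8.26 (SD, n = 14 summits), from 35.6% to 63.4%, next to 44.5% ± 8.21 over all 3647 optimal summits.

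Beyond the 10 genes, 70 further genes of the pathway were listed in 9 groups, and 69 were found under their names in the gene models. These lists, too, were drawn up with earlier results of these data known. An optimal summit was in a promoter window of 13 (18.8%) and in the wider window of 20 (29.0%), beside 11.6% and 23.6% of all protein-coding genes. When each summit was counted for its nearest gene only, the promoter count was 7 in place of 13. It was 8 with only the optimal peaks above their median signal. Of 6 insulin-like ligands 1 (16.7%), ins-18, had a promoter summit, 767 bp upstream with 52.4 (rank 3632), just above the lowest optimal signal. The 3 receptor adaptor and PI3K subunit genes had none, which a list this short cannot set apart from 11.6%. Of 8 kinase and phosphatase modulators, none had a promoter summit. Among them 1 (12.5%) had one in its wider window (210, rank 404): pptr-1, a PP2A regulatory subunit that acts on AKT-1.

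Of the 12 DAF-16 partners and regulators, 4 (33.3%) had a promoter summit, against 11.6% of all protein-coding genes. The strongest was that of ftt-2, a 14-3-3 protein that binds DAF-16, with 151 (rank 721), 454 bp upstream of its nearest end, and smk-1, a DAF-16 cofactor, followed with 87.9 (rank 1803). The others were par-5 and math-33, and there another gene had the nearest 5′ end. Of 8 regulators of SKN-1 and HSF-1, wdr-23, whose product targets SKN-1 for degradation, had a promoter summit of 214 (rank 391, with ranks 342 and 422 in replicates 1 and 2) 95 bp upstream. The kinase genes gsk-3, nsy-1, pmk-1 and sek-1 had optimal summits in the wider window only. In this list the share was 12.5% for promoter windows and 62.5% for the wider window, against 11.6% and 23.6% of all protein-coding genes. Both lists are short, and whether their shares differ from those over all genes was not tested.

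In the TOR and AMPK branch, 3 of 9 genes (33.3%) had a promoter summit. Among them were rheb-1, a TOR activator (202, rank 429), and aak-2, an AMPK catalytic subunit (80.2, rank 2065). Of 14 DAF-16 targets 1 (7.14%), sip-1, had one, and its nearest 5′ end was that of sly-1. None of 4 SKN-1 targets had one. Lists this short cannot set such counts apart from the 11.6% over all protein-coding genes. Of 5 HSF-1 targets found, 3 (60%) had one: hsp-90 with 401 (rank 81), hsp-1 with 337 (rank 133) and hsp-110 with 297 (rank 185). This list and that of the TOR and AMPK branch are short too, and whether their shares differ from 11.6% was not tested. Of these 3 HSF-1 targets, all but hsp-1 had another gene's 5′ end nearest to the summit.

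**Figure D5:**
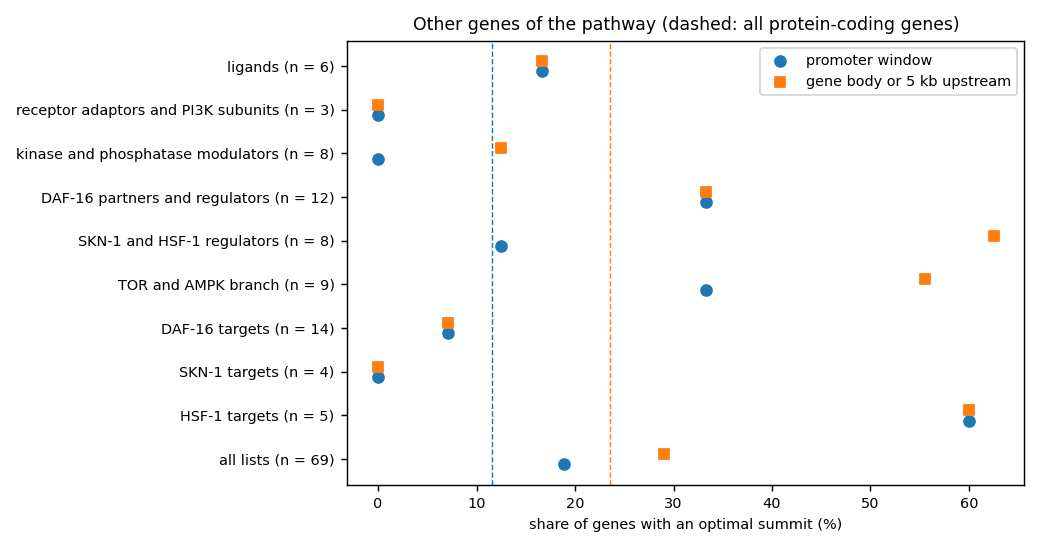
Circles give the share of each list's genes with an optimal summit in a promoter window and squares the share with one in the gene body or 5 kb upstream (x, percent), with the number of genes found in brackets. Dashed lines mark all protein-coding genes, at 11.6% and 23.6%; the lists hold 3 to 14 genes each, so 1 gene moves a share by several points.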

How the data were processed

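ChIP-seq of 2 biological replicates of 1 group was analysed from peak lists on ce11. The authors deposited for each interval a signal, a −log10 q-value and a summit, per the file columns, with 30000 candidates in each replicate list and in the list pooled over both, and 3647 optimal peaks. In the optimal list every −log10 q-value deposited was 4.00, so intervals were ranked by signal. Peak caller and aligner: not given in the sources used here, nor is the threshold. The deposited lists on ce10 were not used here. Each optimal peak was matched to the pooled candidate with the same position and summit.

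Gene models were those of Ensembl release 115 (WBcel235). Because trans-splicing is common in worms, an annotated 5′ end can differ from the site of transcription initiation. Summits were assigned to every gene in whose window they lay, and distances are negative upstream. All steps were run in Python 3.11.15. Only the assignment to windows, the distances and the word search were tested on simulated data. There 200 of 200 summits planted inside promoter windows were recovered, which checks the code and not the binding calls. The depth of the libraries is unknown, so no interval or floor was computed, and with 1 group and no control no test was made and no p-value is given.

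The members and lists were chosen with earlier results of these data known. The genes named are the 10 members, each with all optimal summits and otherwise its strongest candidates, the nearest gene of each summit, and up to 2 genes per list by strongest promoter summit; the other list genes were named after their values were seen. Alternatives were other upstream and promoter lengths, the stronger 50% of peaks, assignment by overlap or to the nearest gene only, other overlap rules and word windows, overlapping peaks counted once, and each replicate alone.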

Additional observations from a re-analysis of the deposited data

How the results depend on the processing

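With each replicate left out in turn (the 3647 strongest intervals of the other taken), the number of genes with a promoter summit ranged from 2 to 4: daf-2 and daf-16 had none in replicate 1 alone, although daf-2 and daf-16 had one in replicate 2 alone. In the stronger 50% of the optimal peaks, a list shorter by construction, 4 of the 10 genes held 6 summits, or 3.40 per 100 kb, 2 genes had a promoter summit, and 8 genes of the pathway lists had one. A promoter window of 500 bp left 2 genes with a summit, and counting each summit for its nearest gene only left 7 pathway list genes. No share or density over all protein-coding genes was computed under these settings. The 3.40 therefore has no matching background, since the 3.68 over all genes is for the full optimal list. Under the other alternatives run for the genes and summits in the window, 5 to 6 genes had an optimal summit and 10 to 16 summits lay there; 13 did with overlapping intervals counted once, an alternative chosen after seeing the data. The SKN-1 word was at 2 summits in place of 1 in the wider stretch, and no other word count changed. In replicate 1 alone daf-2 had no summit in its window. By overlap with any of the 3647 strongest intervals, 10 of the 14 peaks were found in both replicates, and 12 overlapped both lists by 50% reciprocally. The shares of all optimal peaks that meet these rules were not computed. No paired analysis was possible because there is only 1 group. Without read depth or a control sample, a gene with no peak cannot be called unbound.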
